A study of Mus musculus with 3 samples.

Results

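The levels of 10 genes of the osteoclast pathway were followed across the cell types of the mouse cochlea and of the bone and marrow around it. The genes were chosen by their known roles, with earlier results of these data known, and they are 10 of the 32285 genes counted. Ctsk, Acp5, Ocstamp, Dcstamp and Atp6v0d2 are effector genes of the osteoclast, and Csf1r, Tnfrsf11a, Csf1, Tnfsf11 and Tnfrsf11b encode the receptors, ligands and decoy receptor that direct its formation. Unique molecular identifiers (UMIs, 1 per captured RNA molecule) were counted for them in 37188 of 39092 cell barcodes, those with at least 500 UMIs, at least 200 genes and at most 20% mitochondrial UMIs.

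The series holds 3 single-cell RNA libraries of C57BL/6J cochlea, each labelled as made from 6 mice. The HHL (hidden hearing loss) group heard 110 dB noise for 2 h, the NIHL (noise-induced hearing loss) group heard 115 dB for 4 h on each of 3 days, with cochleae collected 6 h after the end of exposure, and the control group heard no noise. Pooling of 6 mice leaves no measure of the spread between animals. All barcodes stand in 1 table, and no label ties the barcode suffixes 1, 2 and 3 to a group, so the values are given for libraries 1, 2 and 3 without treatment names, tests or p-values.

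Osteoclasts are multinucleated cells of the monocyte and macrophage lineage that resorb bone. CSF1 (M-CSF), the ligand of the receptor tyrosine kinase CSF1R, keeps their precursors alive, and RANKL, encoded by Tnfsf11, acts on RANK, encoded by Tnfrsf11a, to turn them into osteoclasts through the transcription factor NFATc1. Osteoprotegerin, encoded by Tnfrsf11b, is a secreted decoy receptor that binds RANKL, and in the mouse inner ear it is known to keep the otic capsule from being remodelled. The effector genes encode cathepsin K (Ctsk), a collagen-cleaving protease, tartrate-resistant acid phosphatase (Acp5), the fusion proteins OC-STAMP (Ocstamp) and DC-STAMP (Dcstamp), and the d2 subunit of the vacuolar proton pump (Atp6v0d2). In the deposited gene list the genes are Ctsk (ENSMUSG00000028111), Acp5 (ENSMUSG00000001348), Ocstamp (ENSMUSG00000027670), Dcstamp (ENSMUSG00000022303), Atp6v0d2 (ENSMUSG00000028238), Csf1r (ENSMUSG00000024621), Tnfrsf11a (ENSMUSG00000026321), Csf1 (ENSMUSG00000014599), Tnfsf11 (ENSMUSG00000022015) and Tnfrsf11b (ENSMUSG00000063727).

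The promoters of Ctsk and Acp5 are shown because the results turn on how differently these genes were spread over cell types. The RefSeq promoter table (build GRCm38.p6, an older build than that of the counts) held 300 bases around each start site for 5 of the 10 genes, Acp5, Ctsk, Csf1, Tnfrsf11a and Tnfsf11. It lists 3 start sites for Acp5, on the minus strand of chromosome 9, and 1 for Ctsk, on the plus strand of chromosome 3. Capitals mark the core letters of NFAT motifs, GGAAA or TTTCC on the printed strand.
Acp5 at chr9:22130549-22130848: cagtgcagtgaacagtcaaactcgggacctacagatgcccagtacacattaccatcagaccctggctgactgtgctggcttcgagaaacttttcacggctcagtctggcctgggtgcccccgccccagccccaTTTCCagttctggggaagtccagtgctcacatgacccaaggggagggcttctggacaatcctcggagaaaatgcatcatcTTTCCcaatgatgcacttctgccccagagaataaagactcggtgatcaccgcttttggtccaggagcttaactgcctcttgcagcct
Acp5 at chr9:22131816-22132115: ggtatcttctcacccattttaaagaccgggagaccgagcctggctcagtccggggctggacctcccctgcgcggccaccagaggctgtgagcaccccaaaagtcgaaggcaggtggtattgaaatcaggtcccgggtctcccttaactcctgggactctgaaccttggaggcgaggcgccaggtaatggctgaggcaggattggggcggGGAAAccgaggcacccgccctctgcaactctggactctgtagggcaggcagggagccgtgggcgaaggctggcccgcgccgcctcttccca
Acp5 at chr9:22135697-22135996: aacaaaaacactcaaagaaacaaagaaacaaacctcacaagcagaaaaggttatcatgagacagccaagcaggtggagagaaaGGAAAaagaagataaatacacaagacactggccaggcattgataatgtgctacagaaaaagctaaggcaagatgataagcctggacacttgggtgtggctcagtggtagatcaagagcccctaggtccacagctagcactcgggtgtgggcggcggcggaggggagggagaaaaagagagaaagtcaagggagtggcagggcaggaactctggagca
Ctsk at chr3:95498960-95499259: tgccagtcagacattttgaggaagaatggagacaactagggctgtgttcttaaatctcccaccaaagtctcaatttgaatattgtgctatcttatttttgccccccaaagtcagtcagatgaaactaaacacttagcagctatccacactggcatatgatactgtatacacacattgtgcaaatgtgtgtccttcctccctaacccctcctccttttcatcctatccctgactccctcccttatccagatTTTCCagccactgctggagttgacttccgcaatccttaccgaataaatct

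The NFAT core occurred in 61.3% of 32851 mouse promoters of this length on either strand, and it occurred in all 4 of these. It was also found 3 times in the promoter of Csf1 and 1 time in that of Tnfsf11, and not in that of Tnfrsf11a. The motif AGATAA, which erythroid transcription factors of the GATA family bind, occurred in 11.2% of promoters and, among the 3 of Acp5, in the one at chr9:22135697-22135996. CATGTG, an E-box bound by MITF, occurred in 14.2% and in the one at chr9:22130549-22130848, and GAGGAA, a PU.1 core whose letters can overlap the NFAT core, occurred in 28.3% and 2 times in that of Ctsk. These are matches of letters, and the 3′ counts do not tell which start site was used.

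The kept barcodes numbered 16883, 9602 and 10703 in libraries 1, 2 and 3, with medians of 5464, 6294 and 8098 UMIs and totals of 131084591, 92188324 and 144942023 UMIs. Of 37059 distinct barcode sequences, 127 occurred in 2 libraries and 1 in all 3. Cell types were gated by 18 marker lists that hold none of the 10 genes. The macrophage gate (C1qa, C1qb, C1qc, Adgre1 and others) took 226, 257 and 424 barcodes of libraries 1, 2 and 3. The monocyte gate (Ly6c2, Ccr2 and others) took 2467, 1065 and 1418, the osteoblast or osteocyte gate (Bglap, Ibsp, Dmp1 and others) 104, 71 and 44, and the gate of Cxcl12-abundant stroma, the reticular cells of marrow, 50, 29 and 58. No gate held 12.8% of the kept barcodes, and 9.21% passed several gates and entered none. Levels are CPM (counts of a gene scaled to 1000000 UMIs) of a gate, brackets give exact 95% Poisson intervals for CPM and exact Clopper-Pearson 95% intervals for shares, and these intervals cover counting error only.

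**Figure D1:**
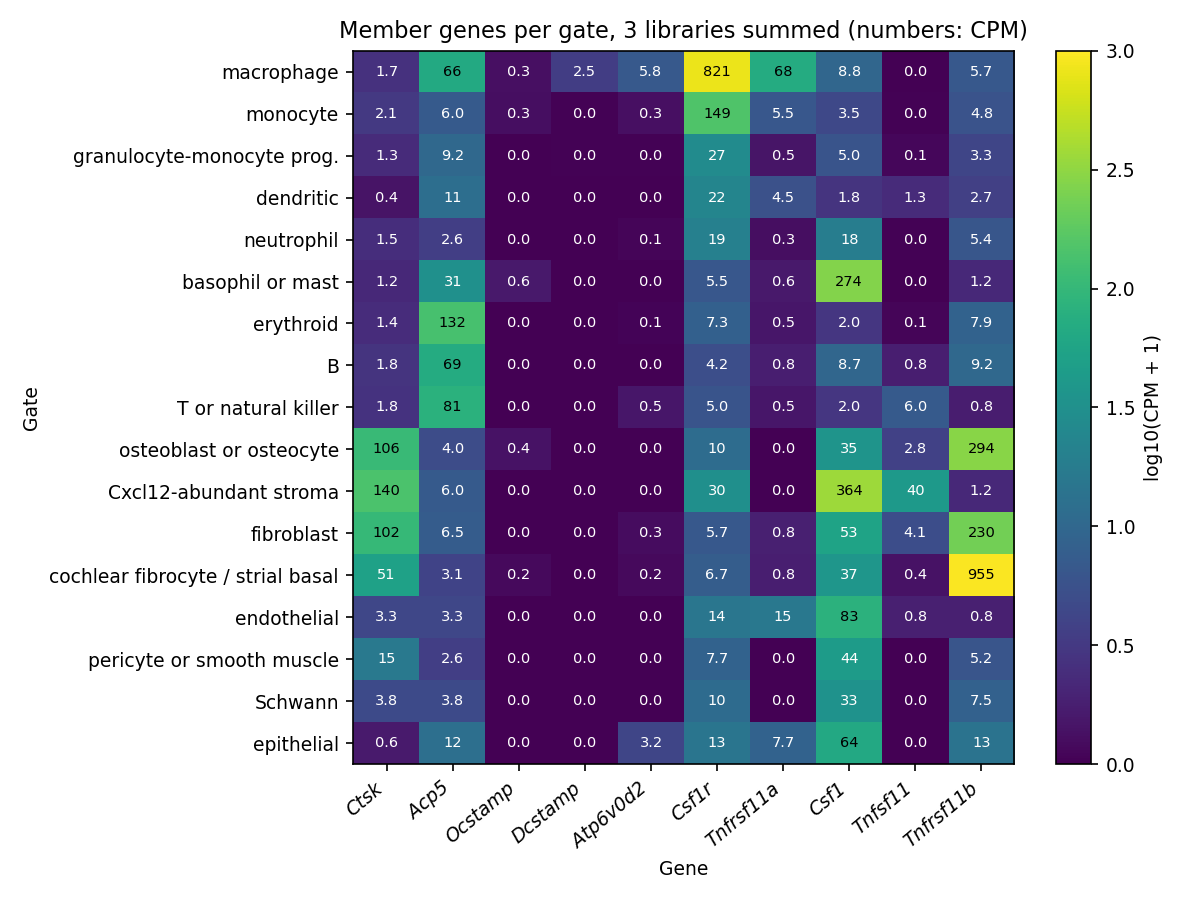
Level of each of the 10 genes (columns) in 17 gates (rows), as CPM over the 3 libraries together, coloured by log10(CPM + 1). Csf1r and Tnfrsf11a peaked in the macrophage gate, Tnfrsf11b in cochlear fibrocytes, Ctsk in stromal gates and Acp5 in the erythroid gate.

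Csf1r, the receptor for CSF1 and IL-34, was highest in the macrophage gate in all 3 libraries. It stood at 760.3 CPM [701 to 824] in library 1, 1018 CPM [974 to 1063] in library 2 and 716 CPM [687 to 745] in library 3 in macrophages, against 171, 198 and 109 CPM in monocytes. The lowest macrophage library lay above the highest monocyte library. The pooled level in macrophages was 5.52-fold [5.33 to 5.72] that in monocytes and 79.4-fold [54.1 to 122] that in osteoblasts or osteocytes, where only 26 UMIs were counted. At least 1 Csf1r UMI was found in 84.5% of macrophages and 77.4% of monocytes, against 1.90% of B cells, at median depths of 5629, 9529.5 and 2984.5 UMIs. After thinning each barcode to 1000 UMIs the shares were 52.4%, 16.5% and 0.608%.

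Neutrophils held a low level of Csf1r, 15.8, 29.2 and 19.5 CPM in libraries 1, 2 and 3. In neutrophils with more Retnlg and Cxcr2 than Ngp, Camp and Ltf UMIs, the profile of mature cells, Csf1r was at 44.5, 50.3 and 47.6 CPM, against 9.15, 11.3 and 7.97 CPM in the other neutrophils. The ranges did not overlap. The split was chosen after levels had been seen, as were the other splits within a gate below.

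Tnfrsf11a, the receptor for RANKL, followed the same order of macrophage over monocyte. Macrophages held 48.0 CPM [34.0 to 65.9], 80.0 CPM [68.1 to 93.5] and 66.4 CPM [57.8 to 75.9] in libraries 1, 2 and 3, against 5.92, 7.74 and 4.14 CPM in monocytes. The pooled ratio was 12.5-fold [10.8 to 14.5]. Of macrophages 30.2% [27.2 to 33.3] had a UMI of the gene and of monocytes 6.22%, against 0.171% of neutrophils at a median depth of 4157.5 UMIs. Osteoblasts or osteocytes had 0 UMIs of Tnfrsf11a in 219 barcodes, or 0 CPM [0 to 1.47], where 3 counts would give 1.19 CPM.

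Endothelial cells came next for Tnfrsf11a, at 19.6, 14.3 and 11.3 CPM from 9, 3 and 6 UMIs in libraries 1, 2 and 3. This range lay below that of macrophages and above that of monocytes. The 18 UMIs came from 17 of 167 endothelial barcodes.

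Within the macrophage gate the receptors were higher in cells with little Vcam1, an adhesion receptor that macrophages of erythroblastic islands carry. Csf1r stood at 601, 702 and 602 CPM in macrophages with at least 5 Vcam1 UMIs per 10000 and at 886, 1189 and 863 CPM in those with fewer. Tnfrsf11a stood at 31.6, 77.3 and 54.2 CPM in the first set and at 60.8, 81.5 and 82.2 CPM in the second. For this gene the ranges overlapped, and the intervals met in libraries 1 and 2. In library 1 its values came from 11 and 27 UMIs. Acp5 went the other way within each library, at 48.8, 74.5 and 104 CPM in the Vcam1-rich set and 33.8, 34.2 and 54.6 CPM in the other. Its ranges overlapped too, and in library 1 the values came from 17 and 15 UMIs, with intervals that met.

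Csf1, the growth factor, was highest in marrow stroma and in basophils or mast cells. Cxcl12-abundant stroma held 237 CPM [177 to 311], 325 CPM [259 to 403] and 469 CPM [401 to 546] in libraries 1, 2 and 3. The basophil or mast cell gate held 242, 309 and 278 CPM, and these ranges overlapped. Endothelial cells followed at 67.4, 85.9 and 96.3 CPM, below the lowest value of either leading gate. A Csf1 UMI was found in 75.2% of the stromal barcodes and 69.9% of basophils or mast cells, against 1.04% of T or natural killer cells, at median depths of 5603, 6047 and 4651.5 UMIs.

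Osteoblasts or osteocytes held less Csf1, 32.1, 26.9 and 60.9 CPM, and macrophages 6.31, 6.54 and 10.8 CPM. Mature neutrophils, as split above, held 32.4, 62.0 and 22.0 CPM, against 7.76, 17.2 and 9.74 CPM in the other neutrophils. In both sets library 2 was highest, and within each library the mature set was higher.

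Tnfsf11, the RANKL gene, was rare, with 161 UMIs in 121 of all kept barcodes. Cxcl12-abundant stroma held the highest level, 54.7 CPM [28.3 to 95.5], 11.8 CPM [2.42 to 34.3] and 49.97 CPM [29.6 to 79.0] in libraries 1, 2 and 3, from 12, 3 and 18 UMIs. The lowest of these values lay above all 3 of the T or natural killer gate, 6.58, 6.55 and 5.31 CPM, though the intervals met in library 2. Of the stromal barcodes 16.8% had a Tnfsf11 UMI, against 0.0205% of neutrophils at a median depth of 4157.5 UMIs.

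T cells are known to make RANKL when activated. Within the T or natural killer gate, barcodes with a Cd3 gene and no Klrb1c held 6, 8 and 8 Tnfsf11 UMIs (9.57, 9.60 and 8.19 CPM), and the 64 barcodes with Klrb1c and no Cd3 gene held 0 (0 CPM [0 to 9.20]). Over so few barcodes that interval reaches the pooled 9.03 CPM [5.66 to 13.7] of the Cd3 set, so a difference was not detectable at this depth. In macrophages, 0 Tnfsf11 UMIs were counted in 907 barcodes, or 0 CPM [0 to 0.613], where 3 counts would give 0.499 CPM.

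In osteoblasts or osteocytes Tnfsf11 was at 0.943, 0.960 and 12.2 CPM, from 1, 1 and 5 UMIs. In fibroblasts it was at 2.16, 0.668 and 9.54 CPM, from 2, 1 and 12 UMIs. Library 3 was highest in both gates. With so few UMIs, the osteoblast values of libraries 1 and 2 lie under the level that 3 counts would give.

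Tnfrsf11b, the osteoprotegerin gene, was highest in cells of the cochlea itself. The gate of cochlear fibrocytes or strial basal cells (Coch, Otos, Otor, Cldn11 and others) held 925 CPM [860.1 to 993.7], 1031 CPM [984 to 1079] and 912 CPM [876 to 949] in libraries 1, 2 and 3. Osteoblasts or osteocytes held 356, 207 and 356 CPM and fibroblasts 280, 209 and 218 CPM, ranges that overlapped each other and lay well below that of fibrocytes. A UMI was found in 78.5% of fibrocyte barcodes, 66.2% of osteoblasts or osteocytes and 28.6% of fibroblasts, against 0.445% of T or natural killer cells, at median depths of 4952, 7559, 4796 and 4651.5 UMIs. Neutrophils had a level of 3.30, 12.6 and 4.40 CPM, and 110 of the 222 neutrophil UMIs of library 2 came from 1 barcode.

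Cxcl12-abundant stroma, the gate with the highest Tnfsf11 level and 33 of the 161 Tnfsf11 UMIs, had 1 Tnfrsf11b UMI in 137 barcodes. The makeup of the summed Tnfsf11 and Tnfrsf11b UMIs therefore differed between stromal gates. Tnfsf11 was 97.1% [84.7 to 99.9] of the sum in Cxcl12-abundant stroma, from 33 and 1 UMIs. It was 0.937% [0.378 to 1.92] in osteoblasts or osteocytes, from 7 and 740 UMIs, and 1.74% [0.978 to 2.86] in fibroblasts, from 15 and 846. In fibrocytes it was 0.0401% [0.00485 to 0.145], from 2 and 4991. The intervals of the stroma and the other gates did not meet. How efficiently each transcript is captured was not tested, so the share is a comparison between gates and not a ratio of molecules. Without library 3 the osteoblast share was 0.336% and the fibroblast share 0.522%.

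**Figure D2:**
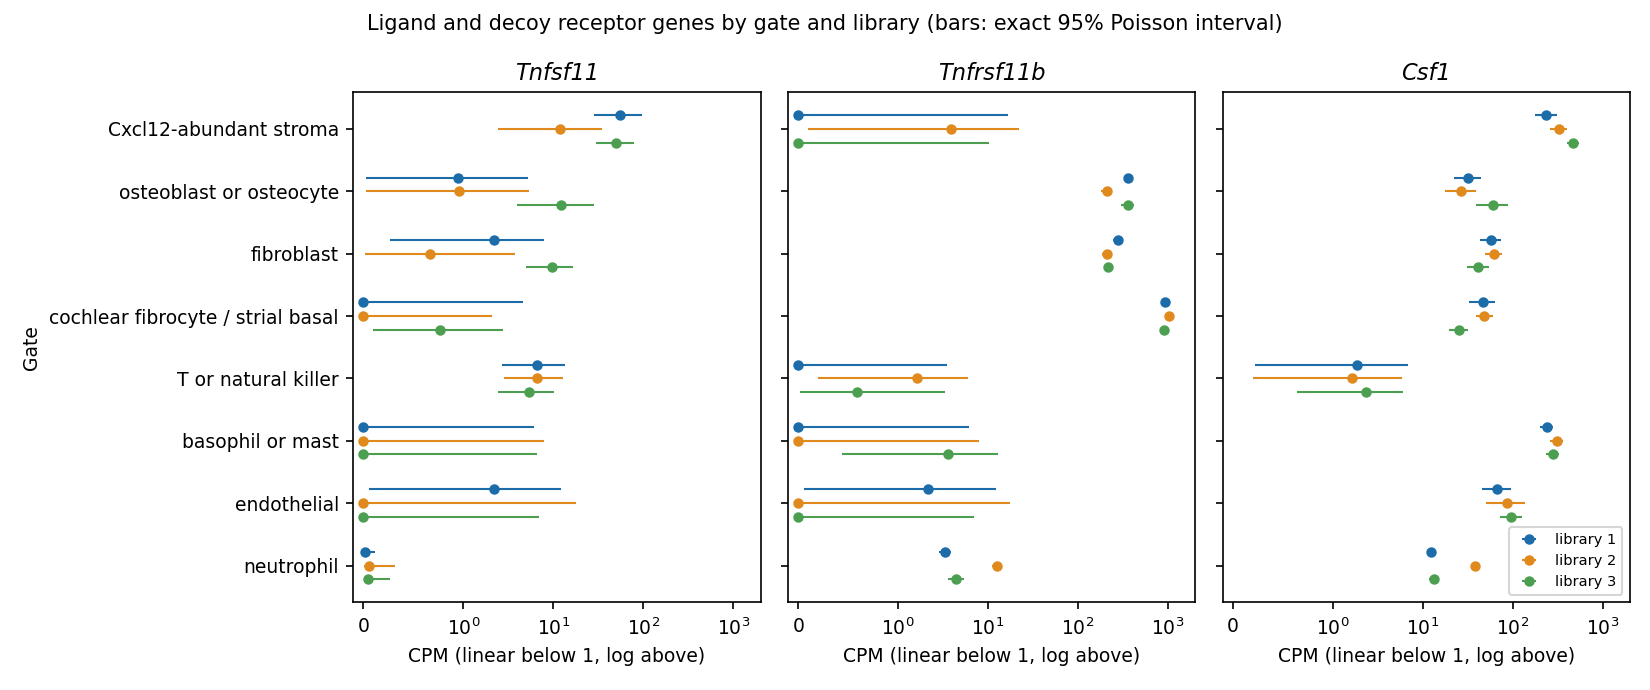
CPM of Tnfsf11, Tnfrsf11b and Csf1 (panels, linear below 1 and log above) in 8 gates, 1 point per library with its exact 95% Poisson interval. Cxcl12-abundant stroma leads for Tnfsf11 and has 0, 1 and 0 UMIs of Tnfrsf11b, while fibrocytes lead for Tnfrsf11b at 912 to 1031 CPM.

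Ctsk, the collagenolytic protease best known from osteoclasts, was in these gates a gene of stroma and bone-forming cells. Cxcl12-abundant stroma held 155, 141 and 130.5 CPM in libraries 1, 2 and 3, osteoblasts or osteocytes 89.6, 110.4 and 136 CPM, and fibroblasts 55.1, 107 and 131 CPM. These 3 ranges overlapped. Fibrocytes held 38.2, 73.0 and 40.8 CPM, and pericytes or smooth muscle cells 10.6 to 20.04 CPM, with no overlap between those last 2 gates. A Ctsk UMI was found in 51.1%, 46.6%, 36.4% and 21.8% of the barcodes of the first 4 gates, against 0.779% of neutrophils.

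Macrophages held 1.26, 0.503 and 2.47 CPM of Ctsk, against 89.6, 110.4 and 136 CPM in osteoblasts or osteocytes. The pooled ratio was 0.0157 [0.00744 to 0.0293], and 0.00721 without library 3. The share of macrophages with a UMI, 1.10% [0.530 to 2.02], lay close to the 0.779% [0.643 to 0.936] of neutrophils, which is read as background.

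Acp5 was spread over several blood lineages and led in erythroid cells. The erythroid gate held 140.2 CPM [118 to 166], 106 CPM [101 to 112] and 161 CPM [154 to 168] in libraries 1, 2 and 3. T or natural killer cells followed at 85.6, 76.1 and 82.6 CPM, B cells at 50.7, 53.0 and 93.2 CPM and macrophages at 40.4, 48.3 and 82.5 CPM. The ranges of these last 3 gates overlapped, and the erythroid range lay above that of T or natural killer cells. Basophils or mast cells held 41.6, 25.6 and 23.3 CPM, a range that met that of macrophages, and neutrophils 1.58, 3.63 and 4.07 CPM. An Acp5 UMI was found in 39.1% of erythroid, 34.3% of T or natural killer, 23.2% of B, 22.6% of macrophage and 16.9% of basophil or mast barcodes, against 1.37% of neutrophils.

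Within the lineages the level went with subset. In erythroid barcodes, levels were scaled to UMIs other than hemoglobin, since hemoglobin fills these cells. Barcodes with under 10% hemoglobin UMIs held 169, 189 and 248 CPM of Acp5 on this scale, those with 10% to 40% held 172, 194 and 294, and those over 40% held 98.4, 49.9 and 58.9. The last set, of the most hemoglobin-rich cells, was lowest in each library, and in library 1 it had only 3 Acp5 UMIs.

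B cells with a UMI of Ms4a1, which encodes CD20 of maturing B cells, held 88.8, 89.6 and 116 CPM of Acp5, against 17.8, 22.4 and 30.3 CPM in B cells without one. T cells with a Cd3 gene and no Klrb1c held 110.0, 81.6 and 89.0 CPM, against 11.4, 32.7 and 26.2 CPM in barcodes with Klrb1c and no Cd3 gene. In both lineages the ranges were separate. The set with Klrb1c and no Cd3 gene had 64 barcodes and 10 Acp5 UMIs.

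**Figure D3:**
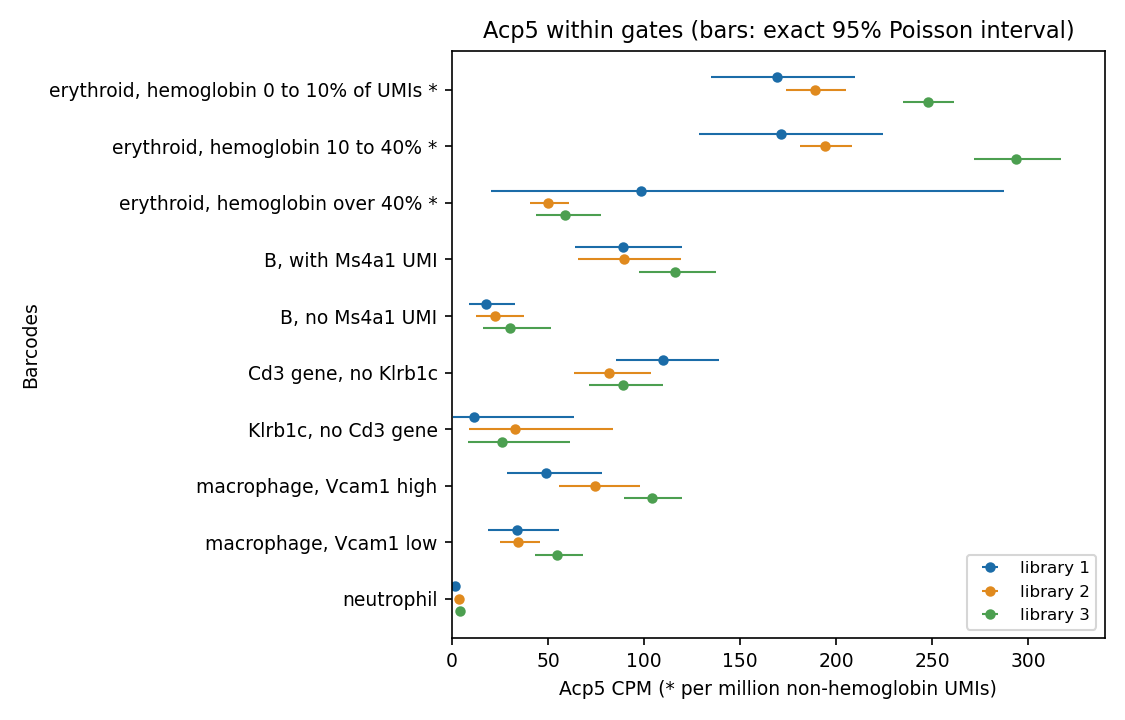
Acp5 level in subsets of 4 gates and in neutrophils (rows), 1 point per library with its exact 95% Poisson interval; erythroid rows are CPM of UMIs other than hemoglobin, all others CPM of all UMIs. Vcam1 high means at least 5 Vcam1 UMIs per 10000. Erythroid barcodes with at most 40% hemoglobin hold the highest values, 169 to 294, and neutrophils the lowest.

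Macrophages over monocytes, Acp5 was 9.79-fold, 8.18-fold and 10.95-fold higher in libraries 1, 2 and 3, and 10.97-fold [9.48 to 12.7] pooled. Monocytes held 4.13, 5.91 and 7.53 CPM. The 7 erythroid markers summed to 5045, 3804 and 13037 CPM in the macrophage gate. Acp5 stood at 40.4, 48.3 and 82.5 CPM in the same gate. Of the erythroid markers, 6, 7 and 7 had a UMI there, and their part in the Acp5 level was not tested.

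Atp6v0d2, the proton pump subunit, was low in macrophages, at 5.05, 10.1 and 3.40 CPM from 4, 20 and 11 UMIs. In monocytes it had 1, 0 and 19 UMIs, and 18 of the 19 came from 1 barcode described below. Without that barcode monocytes held 2 UMIs in all, 0.0333 CPM. Dcstamp had 2, 12 and 1 UMIs in macrophages (2.53, 6.04 and 0.309 CPM), of which 7 came from 1 barcode, and it was at most 0.0848 CPM in any library of the other gates. Ocstamp had 2 UMIs in 907 macrophages and 17 in 4950 monocytes.

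Across the set, 7 of the 10 genes had at least 20 UMIs in macrophages and monocytes together and could be compared. At least 2-fold higher in macrophages in every library were 4 (Csf1r, Tnfrsf11a, Acp5 and Atp6v0d2), and 0 were at least 2-fold lower. Of 13870 genes compared in the same way, 12.6% were higher and 7.43% lower. The median pooled fold was 5.52 over the 7 genes and 1.07 over all. Ctsk (0.787-fold), Tnfrsf11b (1.18-fold) and Csf1 (2.51-fold, but 1.25-fold in library 2) did not pass. Ocstamp, Dcstamp and Tnfsf11 had too few UMIs.

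Set against osteoblasts or osteocytes, the same 4 genes were higher in macrophages and 3 of the 7 compared were lower, where 15.9% of 11959 genes were higher and 13.4% lower. The lower ones were Ctsk, Tnfrsf11b (0.0192-fold [0.0132 to 0.0271]) and Csf1 (0.254-fold [0.177 to 0.362]). In libraries 1, 2 and 3 the Csf1 ratio was 0.197, 0.243 and 0.178, each below the pooled value. Pooled ratios weight libraries by their UMIs in each gate and can lie outside the range of the libraries. Acp5 was 16.5-fold [8.88 to 34.7] higher. Atp6v0d2 counted as higher because osteoblasts or osteocytes had 0 UMIs, but against the level that 3 counts would give there it was 2-fold higher only in library 2. That level was 2.83, 2.88 and 7.31 CPM in libraries 1, 2 and 3, beside 5.05, 10.1 and 3.40 CPM in macrophages. The median pooled fold was 16.5 over the 7 genes and 1.07 over all, and with the 2 genes that had 0 UMIs in osteoblasts or osteocytes set against 3 counts over the gate it was 4.87 over the 7 and 1.07 over all.

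The effector genes met in few cells. Only 12 of 37188 barcodes, 1, 4 and 7 in libraries 1, 2 and 3, had UMIs of at least 3 of the 5 effector genes. That is 0.0323% [0.0167 to 0.0564] of barcodes. The number was 5 without library 3, 8 without barcodes called doublets, and 6 after thinning each barcode to 1000 UMIs. All 5 genes were present in 4 barcodes and at least 4 in 7. Just outside the threshold, 135 barcodes had exactly 2, in 107 of them Ctsk with Acp5. None of the 12 lay in the macrophage gate, 9 passed no gate, 1 passed the monocyte gate and 2 passed several.

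These 12 barcodes held 74.2% of all Atp6v0d2 UMIs, 39.7% of Ocstamp, 38.4% of Ctsk, 37.0% of Dcstamp and 19.3% of Acp5. Since the effector genes chose the barcodes, these shares are a description. The highest single-barcode counts were 249 UMIs of Ctsk and 412 of Acp5. The receptors, which did not choose the barcodes, were present in all 12, with 47 UMIs of Tnfrsf11a (116 CPM) and 166 of Csf1r (409 CPM), against 68.5 and 821 CPM in macrophages. The 12 had a median depth of 28166 UMIs, against 5629 in macrophages, and the part of depth in this presence was not tested. The ligand genes were nearly absent, with 0 UMIs of Tnfsf11 and 2 of Csf1, and the decoy receptor gene Tnfrsf11b had 1.

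Barcodes 6, 7 and 8 of library 3 and barcode 2 of library 2 held all 5 genes. Barcode 6 had 249 Ctsk, 179 Acp5, 8 Ocstamp, 3 Dcstamp and 32 Atp6v0d2 UMIs among 27946. Barcode 7 had 224, 210, 5, 5 and 28 UMIs of the same genes among 21006. Barcode 8 had 146, 412, 6, 4 and 37 among 98741, the deepest of the 12. Barcode 2 had 207, 194, 1, 8 and 35 among 28386.

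Barcodes 1 and 5 stood apart from the rest. Barcode 1, the only one of library 1, had 0 Ctsk and 5 Atp6v0d2 UMIs beside 2177 UMIs of the neutrophil gene S100a8, and it passed the monocyte and neutrophil gates. Barcode 5 had 5 Ctsk, 1 Acp5, 31 C1qa and 697 S100a8 UMIs, and it passed the macrophage and neutrophil gates. In the other 10 barcodes S100a8 was at 18 to 106 UMIs. Doublet calling marked barcodes 1, 2, 3 and 4. Without barcodes 1 and 5, the remaining 10 held 70.8% of Atp6v0d2, 38.2% of Ctsk and 19.1% of Acp5 UMIs.

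**Figure D4:**
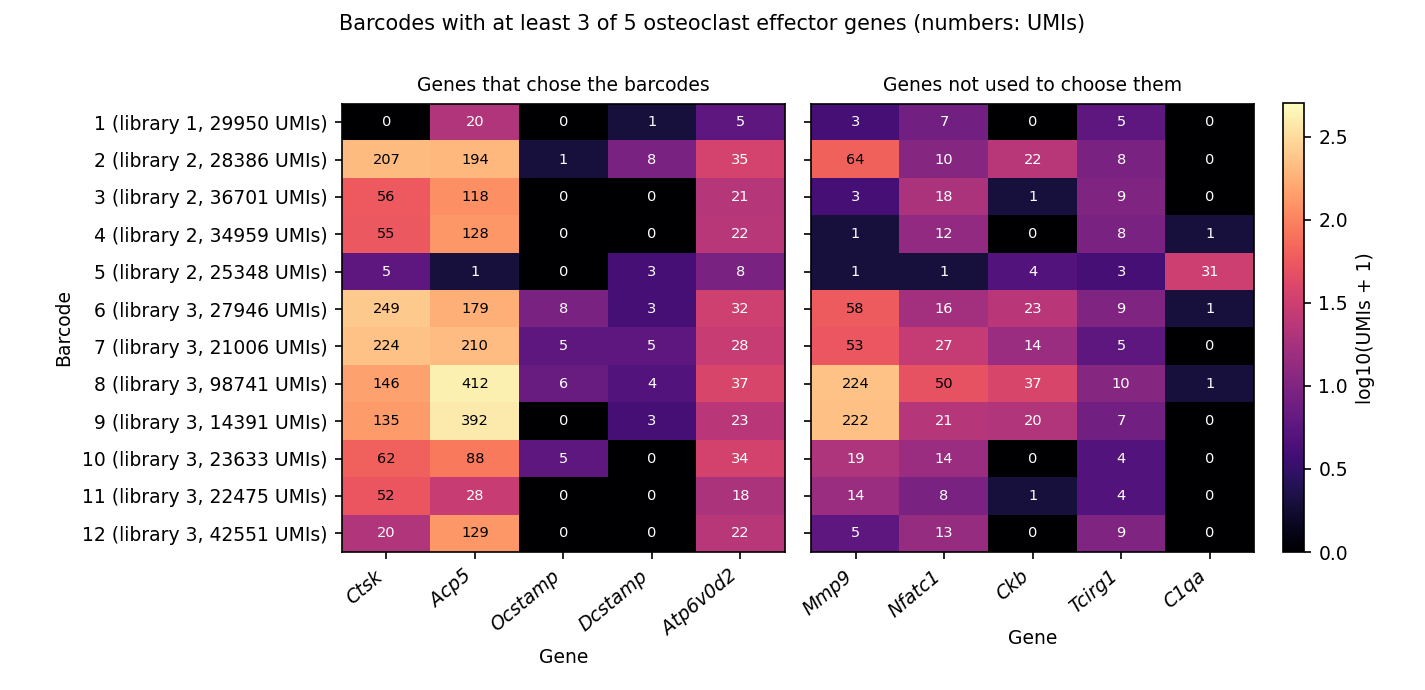
UMIs per barcode (numbers, coloured by log10(UMIs + 1)) in the 12 barcodes with at least 3 effector genes (rows, with library and total UMIs), for the 5 genes that chose them (left) and 5 other genes (right). Barcodes 2, 6, 7, 8 and 9 hold Dcstamp together with 53 to 224 Mmp9 and 14 to 37 Ckb UMIs.

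Other osteoclast genes were present in the same barcodes. Of 11 further bone-resorbing genes, 8 had at least 20 UMIs in these barcodes and macrophages together, and 4 of them were at least 2-fold above the macrophage gate (Mmp9, Itgb3, Src and Tcirg1) and 0 at least 2-fold below, where 12.7% of 10721 genes were above and 25.0% below. The median fold was 1.83 for the 8 genes and 0.933 for all genes. Mmp9, a gelatinase of osteoclasts and neutrophils, stood at 1643 CPM against 39.4 CPM in macrophages. Itgb3, the integrin chain of the osteoclast's bone attachment, had 31 UMIs, but 24 of them were in barcode 8. Tcirg1, the a3 subunit of the proton pump, stood at 199 CPM against 97.4 CPM. Ckb (300 against 269 CPM) and Car2 (106 against 128 CPM) lay within 2-fold of macrophages. Oscar, an osteoclast receptor that binds collagen, had 15 UMIs in 4 barcodes and 0 in macrophages, Calcr, the calcitonin receptor, had 2 UMIs in 1 barcode, and Siglec15 had 0.

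Of 15 signalling and transcription genes, 13 could be compared, and 4 were at least 2-fold above macrophages and 4 below, beside 12.7% and 25.0% of all genes. Nfatc1, the transcription factor downstream of RANK, stood at 485 CPM against 48.9 CPM in macrophages. Jdp2 (574 against 56.4 CPM), Mitf (121 against 44.7 CPM) and Prdm1 (177 against 43.9 CPM) were the other 3 above. Fcer1g, an adaptor of immune receptors, Trem2, Nfkb1 and Nfkb2 were below, Fcer1g at 739 against 2405 CPM. The median fold was 1.06, and the 4 of 13 below lay near the 25.0% of all genes.

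Among repressors of osteoclast formation, Irf8 and Bcl6 were at least 2-fold below macrophages, where 25.0% of all genes were below and 12.7% above. Irf8 stood at 36.9 against 389 CPM and Bcl6 at 9.85 against 51.9 CPM. Of 6 further proton pump genes 4 were at least 2-fold above and 0 below, beside the same shares of all genes, with a median fold of 2.48. Atp6v1b2 stood at 473 against 160 CPM and Atp6v1a at 433 against 165 CPM. Without barcodes 1 and 5 the counts above and below in these lists were the same.

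The 12 barcodes differed among themselves in a way noticed only after their values were seen. Barcodes 2, 6, 7, 8 and 9 had Dcstamp UMIs, 14 to 37 UMIs of Ckb, a creatine kinase of mature osteoclasts, and 53 to 224 of Mmp9. Barcodes 3, 4, 10, 11 and 12 had no Dcstamp, 0 or 1 Ckb and 1 to 19 Mmp9. The proliferation gene Mki67 had 22, 2, 2, 43 and 49 UMIs in these last 5 and 0, 0, 3, 44 and 0 in barcodes 2, 6, 7, 8 and 9. The Mki67 counts of the 2 sets overlapped, and barcode 8, with 44, was the deepest. Ckb was also high in osteoblasts or osteocytes, at 468 CPM against 300 CPM over the 12 barcodes.

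Levels within a gate differed between libraries for some of the genes. In macrophages 3 of the 6 genes with at least 20 UMIs had a highest library at least 2-fold above the lowest, Acp5 (2.04-fold), Atp6v0d2 (2.96-fold) and Tnfrsf11b (0, 9 and 25 UMIs), where 20.2% of 10562 genes did. In osteoblasts or osteocytes 2 of 4 did, Csf1 (2.27-fold) and Csf1r (9, 15 and 2 UMIs), where 26.5% of 9096 genes did. In monocytes 4 of 7 did, where 19.7% of 13404 genes did, and 2 of 6 without the barcode that held 18 Atp6v0d2 UMIs, Tnfrsf11b (2.28-fold) and Csf1 (2.27-fold). The Tnfrsf11b ratio in macrophages, 2.04-fold, set the 0 UMIs of library 1 at 3 counts. For Csf1r in osteoblasts or osteocytes the ratio was 2.96-fold [0.687 to 26.6], an interval that included equal levels. With each barcode thinned to 1000 UMIs the macrophage count was 0. Thinning leaves fewer UMIs by construction, so genes can fall under 20 UMIs and no longer be compared. This 0 therefore does not show that the spread was absent at equal depth. Since the libraries carry no group, these ratios have no direction, and depth differed with them, at medians of 3218, 6901 and 6889.5 UMIs for macrophages.

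Likeness of pattern was measured for the 7 genes with at least 200 UMIs, as Pearson's r of log2(CPM + 1) over 41 sums of a gate in a library, among 11501 genes. The sums share libraries and cell types, so r is a description. Among the genes closest to Ctsk were Nfatc4 (0.96) and Pde1a (0.96). Those closest to Tnfrsf11b were Cemip (0.94), Dner (0.94) and Pcolce2 (0.93), and those closest to Csf1 were Serpine2 (0.82), Slc24a3 (0.82) and Angpt1 (0.81).

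Csf1r was closest to Trem2 (0.91), Adgre1 (0.89, a marker of the macrophage gate) and Clec4a3 (0.88), and Tnfrsf11a to Amz1 (0.87), Ifi207 (0.87) and Cd68 (0.84). Atp6v0d2 was closest to Retnla (0.92), Ms4a7 (0.91) and Timd4 (0.90). Of its 384 UMIs, 285 lay in the 12 effector barcodes, and it reached 200 UMIs only with them. Only 1 of those barcodes entered a gate, so the r values of Atp6v0d2 rest on few UMIs, 35 of them in macrophages. The genes closest to Acp5 were Kcnn4 (0.84), Hscb (0.80) and Tonsl (0.77).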

How the data were processed

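The deposited table holds raw UMI counts per gene and cell barcode, whole numbers that the authors made with Cell Ranger 7.1.0, per the file headers, on build GRCm39, per the submitters' processing notes. Per the labels' protocols, 10x chemistry captured RNA at its 3′ end. How cells were called and libraries combined is not given in the sources used here. In that table the 1 value column was tied to no sample, so libraries were told apart by barcode suffix alone.

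UMIs were summed per gate and library in Python 3.11.15 with numpy 2.4.6, scipy 1.17.1 and pandas 2.3.3. A barcode entered a gate when enough of the gate's markers had a UMI (2 to 5, by gate) and their sum passed 10 to 600 UMIs per 10000. These numbers were set after marker distributions had been seen, and a barcode that passed the fibroblast gate and 1 other stromal gate went to the other. Scrublet (run through scanpy 1.11.5, with 6% doublets expected) called 5.63%, 4.69% and 4.73% of barcodes doublets, which were kept and left out as an alternative. A gene was called where the fold was at least 2 in the same direction in every library with at least 20 summed UMIs, and the share of all genes so called stands beside each count. The genes closest in pattern are the 3 with the highest r among genes of mean CPM at least 5, over sums of at least 50 barcodes. A few genes of these lists are not reported here. TMM factors came from edgeR 4.0.16 in R 4.3.3. The rule of at least 2-fold in every library was tested on simulated sums of the macrophage and monocyte gates, and the other steps were not. The 10 genes, marker lists, pathway lists and rules were chosen with earlier results of these data known. Alternatives were stricter filters, doublets left out, 1 marker fewer or more, thinning to 1000 UMIs, each library left out, TMM scaling, and 3 added after the data were seen. The alias Atp6v0a3 of the pathway list is Tcirg1, already in another list. Free RNA was judged by the shares in gates that should lack a gene.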

Additional observations from a re-analysis of the deposited data

How the results depend on the processing

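Under 13 alternative settings 21 values were recomputed where possible, giving 244 alternative values, of which 199 stayed within the counting interval or within 1.5 times a count, 45 moved and 0 reversed. A minimum of 1000 UMIs, doublets left out and TMM scaling moved none by this rule, but some counts changed within it. Without doublets, 8 barcodes and not 12 had at least 3 effector genes. Genes spread at least 2-fold were then 2 and not 3 in macrophages and 3 and not 4 in monocytes. With a minimum of 1000 UMIs they were 2 in macrophages, and with TMM scaling 5 in monocytes. With each barcode thinned to 1000 UMIs, Csf1r in macrophages was at 867 CPM, Tnfrsf11a in macrophages at 57.7, Tnfrsf11b in fibrocytes at 928, Csf1 in Cxcl12-abundant stroma at 296 and Acp5 in erythroid cells at 94.6 CPM. The macrophage over monocyte fold was then 4.59 for Csf1r and 9.20 for Tnfrsf11a, and Tnfsf11 made up 0% of the summed Tnfsf11 and Tnfrsf11b UMIs in osteoblasts, 100% in Cxcl12-abundant stroma, 0.847% in fibroblasts and 0% in fibrocytes. Thinned, 6 barcodes had at least 3 effector genes, and 0 genes in macrophages and 1 in osteoblasts spread at least 2-fold between libraries, with fewer UMIs by construction. With at most 10% mitochondrial UMIs, Tnfrsf11b in fibrocytes was at 987 CPM. With 1 marker fewer it was at 989.6 CPM and Ctsk in osteoblasts at 120.0 CPM. With 1 marker more, Csf1r in macrophages was at 765 CPM, Tnfrsf11b in fibrocytes at 1038 CPM, Acp5 in erythroid cells at 154 CPM, the Csf1r fold at 5.20 and the Tnfsf11 share in fibrocytes at 0%.

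Leaving out each library in turn, Csf1r in macrophages ran over 724 to 944 CPM, Tnfrsf11b in fibrocytes over 915 to 998, Csf1 in Cxcl12-abundant stroma over 284 to 409 and Acp5 in erythroid cells over 108 to 159 CPM. The Csf1r fold over monocytes ran over 5.23 to 6.11 and the Ctsk fold over osteoblasts over 0.00721 to 0.0218. The Tnfsf11 share ran over 0.336% to 1.63% in osteoblasts, 93.8% to 100% in Cxcl12-abundant stroma, 0.522% to 2.56% in fibroblasts and 0% to 0.0636% in fibrocytes, and the barcodes with at least 3 effector genes numbered 5 to 11.

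Among the settings added after the data were seen, counting barcodes of both the macrophage and erythroid gates as macrophages gave 717 CPM for Csf1r, 60.6 CPM for Tnfrsf11a and a Csf1r fold of 4.82. Leaving out fibroblast barcodes with another stromal gate gave 79.1 CPM for Ctsk in osteoblasts and 0 genes spread at least 2-fold there. Leaving out the 12 effector barcodes gave 2 such genes in monocytes. Apart from thinning and left-out libraries, the causes of these moves were not tested. No paired analysis was possible because each group has 1 library and no library is tied to a label.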
